A study of Mus musculus with 28 samples.

Results

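Microglia carrying both CD229 and CD11c were compared with microglia carrying neither marker, all sorted from the brains of cuprizone-fed mice, for their levels of the repressive histone mark H3K27me3. The comparison holds 6 of the 28 samples of the series, 3 H3K27me3 ChIP-seq libraries from each subset, chosen by the subset named in the labels and not by any measured value. It covers all 26326 regions of a deposited table of sequence tag counts, which gives counts for 12 libraries in all. The study set out to ask how H3K27me3, as a repressive layer, takes part in the inflammatory activities of microglia during brain demyelination.

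Both subsets came from adult male wild-type C57BL/6 mice fed a diet with 0.2% cuprizone for 4 weeks before sacrifice. Cuprizone is a copper chelator that kills oligodendrocytes and strips myelin, so these mice model demyelination by a toxin. The cells were separated by flow cytometry on CD229, the surface receptor encoded by Ly9, and on CD11c, the integrin encoded by Itgax. Per the labels' protocol, brains of 2 to 6 mice of a condition were pooled for a sort. The CD229-CD11c- group holds the cuprizone-exposed microglia with neither marker, and the CD229+CD11c+ group holds those with both. A subset with CD229 but no CD11c, called CD229+CD11c- here, was sorted from mice of the same genotype and diet, with 3 libraries. The 3 basal libraries with counts are of microglia from wild-type adult males without cuprizone. These 2 further groups enter the model of the spread and are given beside the results. Nothing in the labels says that the 3 libraries of a group came from separate animals, so each p-value measures the spread between these libraries, which may be technical.

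H3K27me3 is written by Polycomb repressive complex 2, whose catalytic subunit Ezh2 or Ezh1 methylates lysine 27 of histone H3, and is bound by Polycomb repressive complex 1 through its Cbx subunits. The mark covers promoters, often rich in CpG, and broad domains over genes that a cell keeps silent, such as the developmental transcription factors of other lineages. The demethylases Kdm6a and Kdm6b remove it. In microglia, PRC2 is known to hold back genes of activated and phagocytic states. Because the libraries are bulk samples, a lower level in a subset can mean fewer cells with the mark or less mark per cell, and these cannot be told apart.

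The promoters of 8 genes inside changed regions are shown to let a reader see the CpG content of marked start sites, 4 in regions lower in CD229+CD11c+ and 4 in regions higher there. Each is the 250 bases before the start site, 5′ to 3′ on the gene's strand, taken from RefSeq on GRCm38.p6, with CpG dinucleotides in capitals. The first set runs from a galectin, a receptor and an actin regulator to a phosphodiesterase, at chr14:47373610-47373859 (+ strand), chr7:25788734-25788983 (- strand), chr12:112588517-112588766 (+ strand) and chr9:21165464-21165713 (+ strand).
Lgals3: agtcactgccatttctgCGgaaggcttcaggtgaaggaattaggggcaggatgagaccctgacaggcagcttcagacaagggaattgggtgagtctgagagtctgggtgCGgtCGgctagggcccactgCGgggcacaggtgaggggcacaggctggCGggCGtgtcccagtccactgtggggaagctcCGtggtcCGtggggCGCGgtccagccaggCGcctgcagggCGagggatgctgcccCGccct
Axl: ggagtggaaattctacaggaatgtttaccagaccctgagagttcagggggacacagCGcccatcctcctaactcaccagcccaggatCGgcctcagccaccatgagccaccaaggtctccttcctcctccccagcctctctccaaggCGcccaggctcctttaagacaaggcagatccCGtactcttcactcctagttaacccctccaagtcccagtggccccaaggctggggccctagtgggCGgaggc
Inf2: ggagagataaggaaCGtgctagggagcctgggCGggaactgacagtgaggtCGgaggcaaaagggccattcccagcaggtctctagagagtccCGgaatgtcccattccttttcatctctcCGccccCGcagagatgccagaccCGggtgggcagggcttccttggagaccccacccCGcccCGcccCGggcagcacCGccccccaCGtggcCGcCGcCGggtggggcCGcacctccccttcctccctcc
Pde4a: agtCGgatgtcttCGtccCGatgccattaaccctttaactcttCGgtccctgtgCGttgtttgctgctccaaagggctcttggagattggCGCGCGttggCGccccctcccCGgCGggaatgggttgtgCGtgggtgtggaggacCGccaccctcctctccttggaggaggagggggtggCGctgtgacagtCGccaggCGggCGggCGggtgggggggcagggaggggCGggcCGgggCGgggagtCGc
The second set holds a matrix protease, a cAMP sensor, a semaphorin and a receptor phosphatase, at chr8:95352046-95352295 (+ strand), chr15:97767667-97767916 (- strand), chr7:80186620-80186869 (+ strand) and chr4:118291398-118291647 (- strand).
Mmp15: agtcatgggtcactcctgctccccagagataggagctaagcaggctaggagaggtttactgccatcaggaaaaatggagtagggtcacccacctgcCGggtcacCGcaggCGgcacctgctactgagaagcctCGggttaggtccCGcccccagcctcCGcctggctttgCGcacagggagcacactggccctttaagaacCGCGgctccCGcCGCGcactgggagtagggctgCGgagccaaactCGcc
Rapgef3: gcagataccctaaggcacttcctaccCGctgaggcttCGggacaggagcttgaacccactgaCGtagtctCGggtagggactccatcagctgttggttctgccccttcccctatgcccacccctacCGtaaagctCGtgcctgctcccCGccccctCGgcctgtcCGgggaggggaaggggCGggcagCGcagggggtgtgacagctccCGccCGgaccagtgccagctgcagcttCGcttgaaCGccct
Sema4b: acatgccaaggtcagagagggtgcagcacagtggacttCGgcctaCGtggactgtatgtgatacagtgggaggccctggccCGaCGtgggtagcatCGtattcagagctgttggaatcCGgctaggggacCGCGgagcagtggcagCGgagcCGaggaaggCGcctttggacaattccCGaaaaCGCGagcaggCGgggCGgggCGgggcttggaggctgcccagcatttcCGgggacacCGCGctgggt
Ptprf: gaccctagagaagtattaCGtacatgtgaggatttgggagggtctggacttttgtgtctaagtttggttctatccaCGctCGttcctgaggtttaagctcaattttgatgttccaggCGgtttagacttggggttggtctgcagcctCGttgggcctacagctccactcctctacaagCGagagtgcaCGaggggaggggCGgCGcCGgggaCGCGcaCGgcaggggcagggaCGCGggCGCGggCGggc
The upstream stretch held 13 CpG at Lgals3, 5 at Axl, 16 at Inf2 and 22 at Pde4a. In the second set it held 14 at Mmp15, 15 at Rapgef3, 20 at Sema4b and 18 at Ptprf. Axl was thus the poorest in CpG of the 8.

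The 6 libraries held between 7740002 and 11362168 tags in the regions, and over the 12 libraries the median region held 151 to 222 tags. Levels are given as CPM, the tags in a region relative to each 1000000 counted tags, scaled between libraries by edgeR's TMM method and not by region length. Replicate 3 of each cuprizone subset lacks the PE150 tag that the titles of replicates 1 and 2 carry. CD229-CD11c- replicate 3 stood apart from its group: the SD over regions of its log2 difference was 0.37 from replicate 1 and 0.36 from replicate 2, against 0.23 between those, while the CD229+CD11c+ pairs lay at 0.24 to 0.28. The counts without it are therefore given with the results. Of the genes used for the sort, neither Ly9 nor Itgax overlapped a region, so the gate could not be checked in these data.

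Across all regions, H3K27me3 was lower in CD229+CD11c+ microglia at a small set of regions, Lgals3, Egr2 and Bhlhe40 among them, and higher, by smaller steps, at a larger set that included Mmp15, Rapgef3 and Prdm12. Of genes on the lists described here, 13 members were lower and 21 higher, so most of the 144 called regions are not the region of a listed gene. By edgeR's quasi-likelihood test at a Benjamini-Hochberg adjusted p under 0.05, 144 of 26326 regions (0.547%) differed, 104 higher (0.395%) and 40 lower (0.152%) in CD229+CD11c+. The falls had a median size of 1.02 on the log2 scale and reached 2.76, and 22 of 40 were at least 2-fold. The gains had a median of 0.46 and a maximum of 1.09, and 3 of 104 were at least 2-fold. The median over all regions was -0.01. Every called region had no overlap between the 3 libraries of each subset, which also held for 3842 of all regions (14.6%). An unadjusted p under 0.05 was reached by 2951 regions.

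Deviations from the group mean correlated at 0.24, 0.13 and 0.42 between libraries with the same replicate number. Double-negative replicate 2 with double-positive replicate 1, and the reverse, reached 0.18 and 0.13, so numbers 1 and 2 were not told apart. Replicate 3, without the PE150 tag, was at -0.18 to -0.32 with the others. Deviations within a group sum to 0, so the signs of the replicate 3 values follow from the positive values among replicates 1 and 2. They are not separate evidence that replicate 3 differs. With the number as a block over the 9 cuprizone libraries, 2025 regions (7.69%) were called, 1554 higher (5.9%) and 471 lower (1.79%), among them all 144. Scaling by total counts in place of TMM gave 60 higher and 50 lower, so that 54.5% of calls were higher against 72.2%. Without CD229-CD11c- replicate 3 there were 226 higher and 45 lower, without CD229-CD11c- replicate 2 there were 35 and 33, without CD229+CD11c+ replicate 1 there were 30 and 14, and without its replicate 2 there were 43 and 16. Leaving out each of the 6 libraries in turn, 13 of the 40 falls and 24 of the 104 gains kept their call every time. No called region changed direction under any of these settings.

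**Figure D1:**
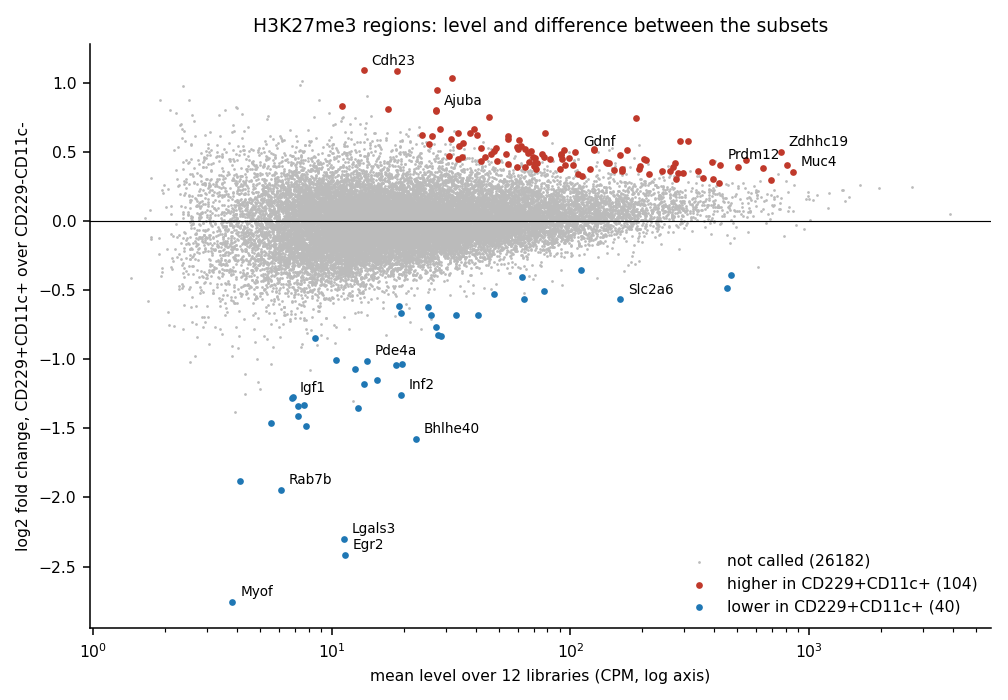
Each point is an H3K27me3 region, with its mean level over 12 libraries in CPM on a log axis (x) and its log2 fold change of CD229+CD11c+ over CD229-CD11c- (y). The 40 lower regions (blue) reach -2.76 and include many at low levels, while the 104 higher regions (red) stay mostly under 1 and extend to the highest levels.

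Several of the 22 falls of at least 2-fold lay at genes known from disease-associated microglia, the state microglia take near myelin debris and amyloid. The list of such genes was written with earlier results of these data known, so its counts describe it and test nothing. Of its 50 genes, 18 had a region within 10 kb of the start site. Of the 18, 6 were lower and none higher, against 0.152% lower over all regions. The median log2 fold change was -0.33 against -0.01 over all regions. With the replicate block 8 of 18 were lower and none higher, against 1.79% lower over all regions. The 6 were Lgals3, Etl4, Axl, Igf1, Ch25h and Rai14. DESeq2 called 1 of the 18 lower and none higher, but it gave no adjusted p for 18 of the 40 falls called by edgeR.

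Lgals3 encodes galectin-3, a secreted and cytosolic lectin that binds β-galactosides and rises in phagocytic microglia. Its region, chr14:47372854-47376837, spans 3984 bp around the first intron and the promoter shown above. The level was 12.6, 14.3 and 16.3 CPM in the CD229-CD11c- libraries and 2.43, 2.71 and 3.54 CPM in the CD229+CD11c+ libraries. All 3 double-positive libraries lay far below the lowest double-negative one, a fold change of -2.30 ± 0.20 (log2 ± SE, adjusted p = 3.21e-06, edgeR). CD229+CD11c- cells lay between, at 5.98, 7.01 and 9.09 CPM, below the double-negative group (adjusted p = 8.18e-04) and above the double-positive group (adjusted p = 0.00723). Basal microglia had the highest mean level, 20.1 ± 1.72 CPM (SD, n = 3).

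Igf1 encodes insulin-like growth factor 1, a trophic factor for oligodendrocytes. Its region, 3319 bp at chr10:87854668-87857986 just upstream of the gene, had 7.09, 6.94 and 13.5 CPM in the double-negative libraries and 3.95, 3.16 and 4.24 CPM in the double-positive ones. The groups did not overlap, but the highest double-negative value came from replicate 3 (log2 -1.28 ± 0.25, adjusted p = 0.0144, edgeR). Axl, a TAM receptor tyrosine kinase for the uptake of apoptotic cells, had the same layout at its promoter region, chr7:25787307-25791743, with 6.15, 7.32 and 13.9 CPM against 3.75, 2.14 and 4.86 CPM. Its difference was -1.33 ± 0.30 on the log2 scale (adjusted p = 0.0480, edgeR), and again the high value was replicate 3. Without that library the adjusted p was 0.0720 for Igf1 and 0.138 for Axl, within ranges over all alternatives of 1.59e-05 to 0.115 and 5.57e-06 to 0.231. Both also lost the call without CD229+CD11c+ replicate 1 or replicate 2, and Axl without CD229-CD11c- replicate 2.

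Ch25h encodes cholesterol 25-hydroxylase, which makes the oxysterol 25-hydroxycholesterol. Its region, chr19:34473375-34480066, contains its promoter. The level was 17.4, 17.7 and 21.5 CPM in the double-negative and 8.20, 8.92 and 7.96 CPM in the double-positive libraries. The gap between the groups was wide (log2 -1.18 ± 0.17, adjusted p = 0.00122, edgeR). Etl4, a gene of the disease-associated list, carried 15.5, 15.6 and 19.4 CPM against 5.87, 7.34 and 6.63 CPM over the first intron at chr2:20518382-20523479. The difference was -1.36 ± 0.16 on the log2 scale (adjusted p = 1.58e-04, edgeR), without overlap. Rai14, an ankyrin-repeat protein that binds actin, fell by 1.03 at its promoter region chr15:10710984-10718196, from 22, 21.8 and 30.3 CPM to 11.2, 9.59 and 15.2 CPM (adjusted p = 0.00205, edgeR). Lgals3, Ch25h, Etl4 and Rai14 kept their calls whichever of the 6 libraries was left out. Among the members that did not pass, Anxa2, a phospholipid-binding annexin, was at -0.68 (adjusted p = 0.145, and 6.49e-04 with the block).

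**Figure D2:**
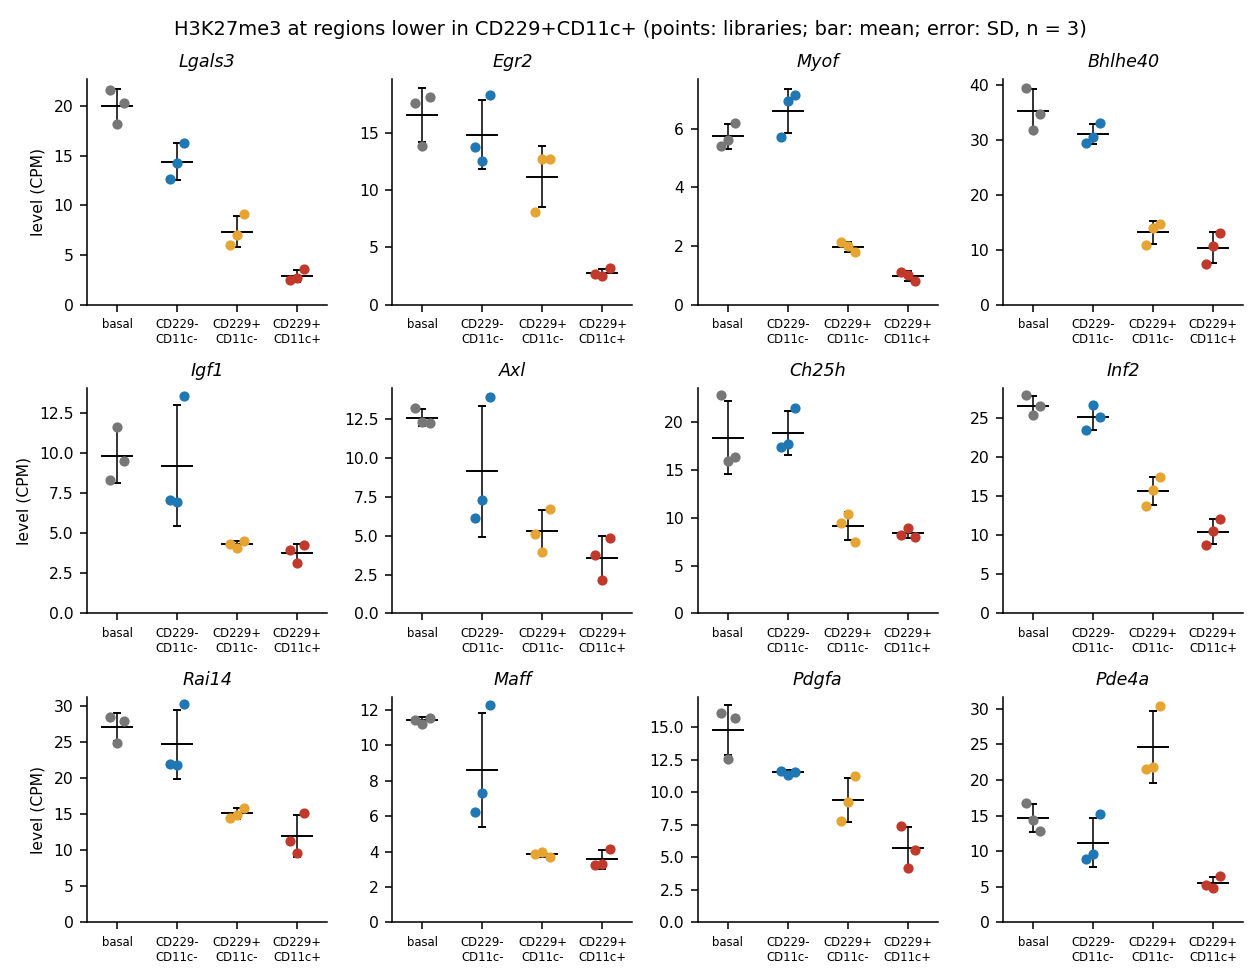
Level of H3K27me3 in CPM (y, linear from 0) in each library (points) of 4 groups (x), with bars for the mean and error bars for the SD (n = 3), at 12 regions named by nearest gene. At each region the red CD229+CD11c+ points lie below all blue CD229-CD11c- points, and at Igf1, Axl, Maff and Pde4a 1 blue point, replicate 3, lies well above the other 2.

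Transcription factors of the immediate-early class gave only falls in the unblocked test and were split with the block. Of 18 such genes with a region, 2 were lower and none higher, against 0.152% and 0.395% of all regions, with a median of -0.11. With the block 6 were lower and 5 higher, against 1.79% and 5.9% of all regions. Egr2, a zinc finger factor induced by growth and immune signals, had the largest fall of any listed gene. Its region, chr10:67537781-67541170, covers 3390 bp of the gene. It held 13.8, 12.5 and 18.3 CPM in the double-negative and 2.63, 2.48 and 3.18 CPM in the double-positive libraries (log2 -2.41 ± 0.22, adjusted p = 5.34e-06, edgeR). CD229+CD11c- libraries held 8.10, 12.7 and 12.7 CPM (-0.43 from the double-negative group, adjusted p = 0.191), and the difference between the 2 CD229+ subsets was -1.99 (adjusted p = 2.70e-04). Maff, a small Maf factor that pairs with other basic leucine zipper proteins, fell by 1.28, from 6.25, 7.32 and 12.3 CPM to 3.24, 3.27 and 4.16 CPM (adjusted p = 0.00998, edgeR). The Maff call was lost without CD229+CD11c+ replicate 1 or 2, with an adjusted p of at most 0.0936 over the alternatives, while that of Egr2 was kept throughout. Below the threshold of the unblocked test, Egr1 stood at -0.71 (adjusted p = 0.0563) and Nr4a3 at -0.70, while Fos stood at 0.35 and Fosb at 0.42. With the block the first pair was called lower and the second pair higher. DESeq2 called 1 member lower and 0 higher, but it gave no adjusted p for 18 of the 40 falls called by edgeR. Its count therefore cannot settle whether members also moved in opposite directions without the block. Among the unblocked test, DESeq2 and the block, the block alone called members in both directions. At an unadjusted p under 0.05 in the unblocked test, 5 were lower and 3 higher.

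Around Bhlhe40, a basic helix-loop-helix repressor induced in activated immune cells, 3 neighbouring counted regions were lower within a span of 240.2 kb. The smallest, a 6297 bp region that the authors added over the gene at chr6:108660629-108666925, had 29.5, 30.5 and 33.2 CPM in the double-negative and 7.39, 10.7 and 13 CPM in the double-positive libraries. The difference was -1.58 ± 0.16 on the log2 scale (adjusted p = 2.10e-05, edgeR), and the call was kept whichever library was left out. It lies inside a 109 kb region at chr6:108632597-108741110, which therefore shares its tags and differed by -0.39 (adjusted p = 0.0491, edgeR). The large region lost its call without any 1 of 4 libraries, CD229-CD11c- replicate 1 or 3 or CD229+CD11c+ replicate 1 or 2. The neighbour on its left, another 109 kb region at chr6:108500921-108610375, held 506, 506 and 563 CPM against 336, 376 and 411 CPM. It differed by -0.49 (adjusted p = 0.00527, edgeR) and lost the call without CD229+CD11c+ replicate 1. On the log2 scale the fall over the gene exceeded those of the broad domains around it.

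Secreted growth factors were split between losses and gains. Of 54 genes of the list of growth factors and morphogens, 2 were lower and 3 higher, against 0.152% and 0.395% of all regions. The median was 0.19. With the block 3 were lower and 27 higher, against 1.79% and 5.9% of all regions. Besides Igf1, Pdgfa, the A chain of platelet-derived growth factor and a mitogen of oligodendrocyte progenitors, was lower at an intronic region, chr5:138989465-138993782. It had 11.7, 11.4 and 11.6 CPM in the double-negative libraries, a tight group, and 7.39, 4.18 and 5.57 CPM in the double-positive ones (log2 -1.01 ± 0.20, adjusted p = 0.0136, edgeR). The Pdgfa call was lost without CD229-CD11c- replicate 2 or CD229+CD11c+ replicate 2 or 3, with an adjusted p of at most 0.115 over the alternatives. Fgf2 was at -1.38 without passing (adjusted p = 0.0696) and passed with the block (adjusted p = 5.08e-04). The 3 gains were Gdnf, the glial cell line-derived neurotrophic factor, Fgf5 and the BMP antagonist Grem1. Gdnf rose from 98.3, 88.8 and 71.1 CPM to 129.9, 127 and 108 CPM (log2 0.50 ± 0.10, adjusted p = 0.0184, edgeR), with no overlap but little distance between the highest double-negative and the lowest double-positive library. Fgf5 rose by 0.46 and Grem1 by 0.46, and each of the 3 lost the call without CD229-CD11c- replicate 2 or CD229+CD11c+ replicate 1 or 2, and Grem1 also without CD229-CD11c- replicate 1 or 3. Wnt5a, Sfrp1, Inhbb and Bmp4 stood between 0.39 and 0.57 and were called higher with the block.

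Genes of cAMP signalling moved in both directions: of 24 with a region, 1 was lower and 3 higher. The median was 0.11, and 0.152% of all regions were lower and 0.395% higher. With the block 2 were lower and 8 higher, against 1.79% and 5.9% of all regions. Cyclic AMP is made by adenylyl cyclases, sensed by protein kinase A and by Epac proteins, and degraded by phosphodiesterases. Pde4a, a phosphodiesterase that hydrolyses cAMP, fell at its promoter region chr9:21163796-21167472, from 8.86, 9.59 and 15.2 CPM to 5.27, 4.85 and 6.54 CPM (log2 -1.01 ± 0.22, adjusted p = 0.0365, edgeR). Here the CD229+CD11c- libraries stood above both other cuprizone groups, at 21.5, 21.9 and 30.4 CPM. Their level was 1.12 above the double-negative group (adjusted p = 4.93e-04), and the double-positive group was at -2.13 relative to them (adjusted p = 3.52e-05). The Pde4a call between double-positive and double-negative cells was lost without CD229-CD11c- replicate 2 or 3 or CD229+CD11c+ replicate 1 or 2, with adjusted p-values over all alternatives of 3.82e-06 to 0.204.

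The 3 gains in this pathway were Rapgef3, the cAMP sensor Epac1, the adenylyl cyclase Adcy8, and Gnas, which encodes the stimulatory G protein subunit. Rapgef3 rose at its promoter region chr15:97764057-97771927, from 27.3, 28.9 and 29.4 CPM to 47.5, 40.5 and 47.5 CPM. The double-negative values were almost equal and the lowest double-positive one lay well above them (log2 0.66 ± 0.10, adjusted p = 0.00155, edgeR). Adcy8 rose from 30.0, 21.8 and 27.5 CPM to 43.5, 42.4 and 38 CPM (log2 0.64 ± 0.12, adjusted p = 0.0117, edgeR). Gnas rose from 45, 37.5 and 33.1 CPM to 61.6, 52.7 and 49.5 CPM (log2 0.50 ± 0.11, adjusted p = 0.0362, edgeR). Rapgef3 kept its call in every fit that left out a library, Adcy8 lost it without CD229-CD11c- replicate 2 or CD229+CD11c+ replicate 1 or 2, and Gnas without these or CD229-CD11c- replicate 3.

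Regulators of actin and adhesion were also split, with 2 lower and 3 higher of 36 genes and a median of 0.14. Of all regions 0.152% were lower and 0.395% higher. With the block 3 were lower and 15 higher, against 1.79% and 5.9% of all regions. Inf2, a formin that builds and severs actin filaments, was lower at chr12:112586627-112593379, with 23.4, 26.6 and 25.1 CPM in the double-negative and 8.81, 10.5 and 12 CPM in the double-positive libraries. Both groups were tight, the difference was -1.26 ± 0.14 on the log2 scale (adjusted p = 3.48e-05, edgeR), and it was called whichever library was left out. The other fall was Rai14. Mmp15, a membrane-type matrix metalloproteinase, rose over its promoter and first intron at chr8:95350803-95356602, from 19.7, 18.3 and 18.6 CPM to 35.2, 29.9 and 33.2 CPM (log2 0.80 ± 0.11, adjusted p = 0.00122, edgeR). Ajuba, a LIM protein of cell junctions, rose from 19, 16.4 and 23 CPM to 37.1, 29 and 35.9 CPM (log2 0.80 ± 0.13, adjusted p = 0.00359, edgeR). Ptprf, the receptor phosphatase LAR, rose from 29.2, 25.9 and 25 CPM to 37, 41.3 and 46.2 CPM (log2 0.64 ± 0.11, adjusted p = 0.00546, edgeR). All 3 gains kept their call whichever library was left out.

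Among semaphorins, plexins and axon guidance genes, 1 of 37 was lower and 1 higher, against 0.152% and 0.395% of all regions. The median was 0.23. With the block 2 were lower and 13 higher, against 1.79% and 5.9% of all regions. Plxnc1, the receptor of semaphorin 7A, fell by 0.68 over its first exon, from 28.9, 25.7 and 34.5 CPM to 18.4, 17 and 20.3 CPM (adjusted p = 0.00923, edgeR). Sema4b, a membrane semaphorin, rose in 2 neighbouring regions. The nearer one, chr7:80169322-80191413, contains the promoter shown above and rose from 113, 119 and 172 CPM to 221, 205 and 251 CPM (log2 0.74 ± 0.13, adjusted p = 0.00858, edgeR). The farther one, chr7:80159841-80167167, rose from 34.4, 26.6 and 32.2 CPM to 49.8, 50.9 and 56.3 CPM (log2 0.75 ± 0.11, adjusted p = 0.00181, edgeR). In the nearer region replicate 3 was the highest library of both subsets, and its call was lost without CD229-CD11c- replicate 2. Plxnc1 lost its call without CD229+CD11c+ replicate 1 or 2.

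Inflammatory signalling genes gave few calls. Ptger4, the EP4 receptor for prostaglandin E2, was the 1 member called, lower, of 12 cytokine and NF-kappa-B genes, whose median was -0.11. Its region, which contains its promoter, fell by 0.77, from 29.7, 31.3 and 37.6 CPM to 18.4, 17.4 and 21.9 CPM (adjusted p = 0.00525, edgeR). That call was lost narrowly without CD229+CD11c+ replicate 1 or 2, with adjusted p-values of 1.16e-07 to 0.0517 over all alternatives. None of 9 interferon response genes and none of 4 antigen presentation genes was called, with medians of -0.25 and -0.18. At an unadjusted p under 0.05 they had 4 lower and 1 higher and 2 lower and 0 higher members. DESeq2 called 0 of either list, but it gave no adjusted p for 18 of the 40 falls called by edgeR. With the block 3 interferon genes were lower, Irf7 at -0.86, Slfn5 at -0.79 and Cmpk2 at -0.65, and Gbp7 was higher at 0.49. Irf7 is the interferon regulatory factor that amplifies type I interferon production. The block also called both H2-Ab1, a class II major histocompatibility chain, at -0.58, and Ciita, the activator of class II genes, at -0.34, lower. In the unblocked test the adjusted p was 0.0565 for Irf7 and 0.412 for Ciita. Of 10 lipid handling genes only Ch25h was called. The shares over all regions were 0.152% lower and 0.395% higher, and 1.79% and 5.9% with the block.

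Several large falls lay at low levels, near genes outside these lists, and were chosen for naming after their values were seen. Myof, which encodes the membrane repair protein myoferlin, had the largest fall of all, in a 2471 bp stretch of its first intron 18.2 kb from the start site. The level was 5.73, 6.94 and 7.15 CPM in the double-negative and 1.11, 1.02 and 0.796 CPM in the double-positive libraries (log2 -2.76 ± 0.27, adjusted p = 1.05e-05, edgeR), the latter resting on 9 to 11 tags per library. Rab7b, a GTPase of late endosomes and lysosomes, fell from 7.50, 7.95 and 10.8 CPM to 2.33, 1.24 and 3.10 CPM (log2 -1.95 ± 0.29, adjusted p = 0.00181, edgeR). Ikbke, an IKK-related kinase of interferon induction, fell from 5.0, 5.93 and 5.99 CPM to 1.22, 1.02 and 2.21 CPM (log2 -1.88 ± 0.36, adjusted p = 0.0134, edgeR). Myof and Rab7b kept their calls whichever library was left out, while Ikbke lost it without CD229-CD11c- replicate 2 or CD229+CD11c+ replicate 1 or 2. Cd72, an inhibitory coreceptor of leukocytes, fell by 1.48, and Sulf2, a sulfatase that edits heparan sulfate outside the cell, by 1.41. Both lost the call without CD229+CD11c+ replicate 1 or 2. A region 9.56 kb from Mir155hg, the host transcript of an inflammatory microRNA, fell by 0.62, from 27, 28.5 and 32.4 CPM to 16.5, 19.5 and 21 CPM (adjusted p = 0.0145, edgeR), and lost the call without CD229-CD11c- replicate 2 or CD229+CD11c+ replicate 1 or 2. Fam20c, a kinase of secreted proteins, and Efr3b, a plasma membrane anchor of a lipid kinase, fell by 1.15 and 1.04 and kept their calls throughout.

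Among regions at or above the median level whose nearest gene has a symbol other than a Rik, Gm, Mir, Snor or LOC name, and leaving aside the added Bhlhe40 region, the 12 largest falls were at Inf2, Rai14, Flt1, Srarp, Ptger4, Pianp, Plxnc1, Xylt1, Slc2a6, Egln3, Gas7 and Sh3pxd2b, from -1.26 to -0.51 on the log2 scale. Flt1, the receptor VEGFR1, is the nearest gene of a region 24.1 kb upstream with 28.3, 31.4 and 44.9 CPM against 18.9, 17 and 22.7 CPM. Egln3, a prolyl hydroxylase that marks HIF for degradation, fell by 0.57, as did Slc2a6, a sugar transporter of lysosomes, in a 42638 bp region with 175, 178 and 234 CPM against 128, 120.2 and 147 CPM. Sh3pxd2b, a scaffold of podosomes, fell by 0.51. Of these 12, Inf2, Rai14 and Srarp kept the call whichever library was left out, and all the others lost it without CD229+CD11c+ replicate 2.

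Gains included factors that pattern the embryo and specify other lineages. Of 126 developmental transcription factors, 78 had a region. Of these, 9 were higher, against 0.395% over all regions, and none lower. The median was 0.26 (0.21 under total-count scaling). It was 0.23 over all regions centred on a CpG island and 0.13 over all those within 1 kb of a start site. The part of CpG content and start-site distance in the list median was not tested. With the block 72 of 78 were higher and none lower, against 5.9% higher over all regions. With offsets fitted to remove trends against basal H3K27me3 and tag number per length, 3 were higher and the median was 0.18. Among them were Prdm12, Six6, Gsx2, Barhl2, Dlx5, Gata4, Atoh1 and Sox14. Prdm12, a zinc finger regulator of sensory neurons, held 370.0, 341 and 342 CPM in the double-negative and 469, 449 and 479 CPM in the double-positive libraries over 51100 bp at chr2:31619689-31670788 (log2 0.41 ± 0.06, adjusted p = 0.00280, edgeR). Six6, a homeobox factor of the eye, held 123, 118 and 118 CPM against 159.6, 163 and 156 CPM (log2 0.42 ± 0.07, adjusted p = 0.00535, edgeR). Both groups were tight there, and Prdm12 and Six6 were the members that kept their call whichever library was left out. Gata4, a zinc finger factor of the heart and endoderm, sits in a 109520 bp region that rose by 0.29, with 622, 592 and 605 CPM against 739, 751 and 736 CPM. The Gata4 call held in 1 of the 6 fits with a library left out, the one without CD229-CD11c- replicate 3.

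The Hox clusters, the best known broad Polycomb domains, did not pass the unblocked test. The region over the Hoxa genes held 1404 ± 163 CPM in the double-negative and 1683 ± 91.6 CPM in the double-positive group (SD, n = 3), a log2 difference of 0.26 (adjusted p = 0.245, edgeR). Hoxb, Hoxc and Hoxd were at 0.24, 0.25 and 0.22, with adjusted p-values of 0.112, 0.0703 and 0.153. In each of the 4 the 3 libraries of the subsets did not overlap, and with the block the adjusted p ran from 5.63e-10 to 3.62e-07. All 4 differences were close to the median of the developmental factors.

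The highest levels among called regions lay in broad domains. Muc4, a membrane mucin, is the nearest gene of a 115630 bp region with 729, 701 and 742 CPM in the double-negative and 924, 891 and 959.7 CPM in the double-positive libraries (log2 0.35 ± 0.06, adjusted p = 0.00923, edgeR). A neighbouring 88300 bp region named for Zdhhc19, a palmitoyltransferase, held 611, 579 and 656 CPM against 872, 812 and 930.2 CPM (log2 0.50 ± 0.07, adjusted p = 0.00155, edgeR). Between them, a region named for the transferrin receptor Tfrc rose as well, by 0.59. Slc12a5, the neuronal potassium-chloride cotransporter KCC2, sits in an 85145 bp region with 731, 655 and 627 CPM against 907, 858 and 901 CPM (log2 0.41 ± 0.07, adjusted p = 0.00678, edgeR). A 118694 bp region with Vegfa as its nearest gene, 67.6 kb away, rose by 0.38 (adjusted p = 0.0362, edgeR). The Zdhhc19 and Tfrc calls survived each left-out library, whereas Muc4 lost its call without CD229-CD11c- replicate 2 or CD229+CD11c+ replicate 1, as did Slc12a5, and Vegfa lost it without these or CD229+CD11c+ replicate 2.

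Under the same limits on level and symbol, the 12 largest gains lay near Ajuba, Mmp15, Sema4b, Snap91, Rapgef3, Ptprf, Adcy8, Gstp3, Ube2m, Ptcd2, Asap2 and Scarf2, from 0.59 to 0.80 on the log2 scale. Larger gains at such levels lay at regions named for 4933405E24Rik (1.03) and 5730435O14Rik (0.94). Snap91, a clathrin adaptor of synapses, rose from 23.9, 22.7 and 19.2 CPM to 38.9, 34.8 and 30.9 CPM and lost the call without CD229-CD11c- replicate 2 or CD229+CD11c+ replicate 1 or 2. Ube2m, which conjugates NEDD8 to cullins, had double-negative levels of 29.4, 31 and 31 CPM and double-positive levels of 45, 48 and 47.8 CPM (log2 0.62 ± 0.09, adjusted p = 0.00164, edgeR), a gain kept in every left-out fit. Scarf2, a scavenger receptor family member, rose by 0.59 and kept its call in 1 of the 6 such fits, without CD229-CD11c- replicate 3. Below the median level, and named after their values were seen, stood Cdh23, a cadherin of hair cells, at 1.09, and Kcnip3, a calcium-binding partner of potassium channels, at 0.81. Cdh23 had 8.65, 7.07 and 5.99 CPM against 14.4, 17.2 and 14.7 CPM, with 25.2, 23.8 and 26.9 CPM in CD229+CD11c- cells, and lost its call without CD229+CD11c+ replicate 2. Kcnip3 lost it without CD229-CD11c- replicate 1 or 2 or CD229+CD11c+ replicate 2.

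**Figure D3:**
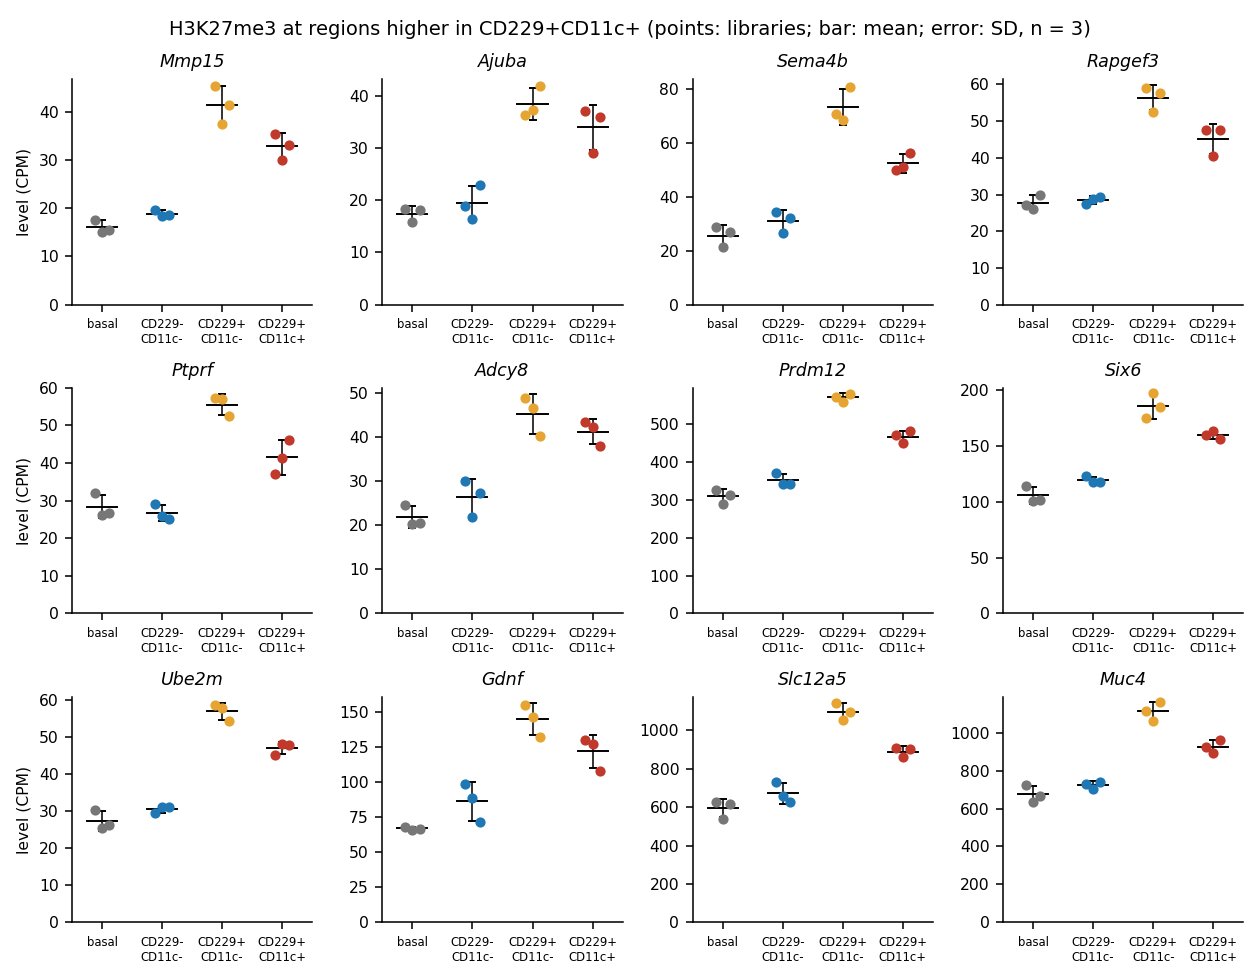
Level of H3K27me3 in CPM (y, linear from 0) in each library (points) of 4 groups (x), with bars for the mean and error bars for the SD (n = 3), at 12 regions named by nearest gene. The red CD229+CD11c+ points lie above all blue CD229-CD11c- points, and the mean of the yellow CD229+CD11c- points is the highest of the 4 groups in every panel drawn.

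The CD229+CD11c- subset was set beside the 2 subsets compared. Its comparison with CD229-CD11c- called 2199 regions (8.35%), and that of CD229+CD11c+ with CD229+CD11c- called 217 (0.824%). These comparisons share libraries with the main contrast, so their values are set side by side only. At the 104 gains the median log2 difference was 0.46 between double-positive and double-negative cells, 0.63 between CD229+CD11c- and double-negative cells, and -0.20 between double-positive and CD229+CD11c- cells. The CD229+CD11c- mean lay above both other subsets at 94 of the 104, against 8621 of 26182 regions not called. At the 40 falls the corresponding medians were -1.02, -0.68 and -0.28. The CD229+CD11c- mean lay between the other 2 at 33 of them, against 7082 of 26182 regions not called. Falls were chosen for a gap between those 2 subsets, which leaves more room between them, so nothing is read from this count. By the test between the 2 CD229+ subsets, 10 of the 104 gains were lower and 1 was higher in double-positive cells, and 4 of the 40 falls were lower.

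A few regions departed from this order. Besides Pde4a, Gpr162, an orphan receptor gene named after its values were seen, had 4.06, 4.80 and 8.60 CPM in double-negative, 4.53, 5.14 and 7.97 CPM in CD229+CD11c- and 2.43, 1.81 and 2.12 CPM in double-positive libraries. Its difference was -1.46 (adjusted p = 0.0402, edgeR), and of the 6 fits with a library left out the one without CD229-CD11c- replicate 1 kept the call. Of the falls, Egr2, Lgals3, Pde4a and Gpr162 were those also lower in CD229+CD11c+ than in CD229+CD11c-. Utp14b was the nearest gene, 59.1 kb away, of the only gain also higher than in CD229+CD11c-, with 138, 136 and 158, then 147, 145 and 178, then 201, 200.1 and 201 CPM in the order of the groups (log2 0.47 ± 0.08, adjusted p = 0.00527, edgeR). At 5 falls, Slc2a6, Egln3 and Traf3ip2 and the regions named for Mir7661 and 2210016L21Rik, the lowest mean was in CD229+CD11c- cells, with 108, 106 and 103 CPM at Slc2a6. Against basal microglia, edgeR called 0 of 26326 regions in the double-negative subset, with 1103 at an unadjusted p under 0.05 and 0 by DESeq2, while in the double-positive subset 102 of the 104 gains, 40 of the 40 falls and 1383 of the 26182 other regions were called. That comparison uses the same double-positive libraries that chose the gains and falls, so nothing is read from these counts.

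Gains and falls differed in length and level. Medians were 6723 bp and 18.9 CPM for the falls, near the 6364 bp and 19 CPM of regions not called. For the gains the medians were 15060 bp and 77.8 CPM, and the part of tag number in this was not tested. Of falls 60.0% and of gains 55.8% had their centre within 5 kb of a start site, against 19% of regions not called. In the top decile of basal enrichment over input 44 of 2633 regions were higher and 7 lower, and of 524 regions over 50 kb 15 were higher and 2 lower. At deposited promoter annotations 15 of 899 regions were higher and 6 lower, against 36 and 16 of 15486 intergenic ones. Of 2495 regions centred on a LINE element 3 were higher and 0 lower, and of 2930 centred on an LTR element 2 were higher and 1 lower. The shares over all regions were 0.395% higher and 0.152% lower.

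**Figure D4:**
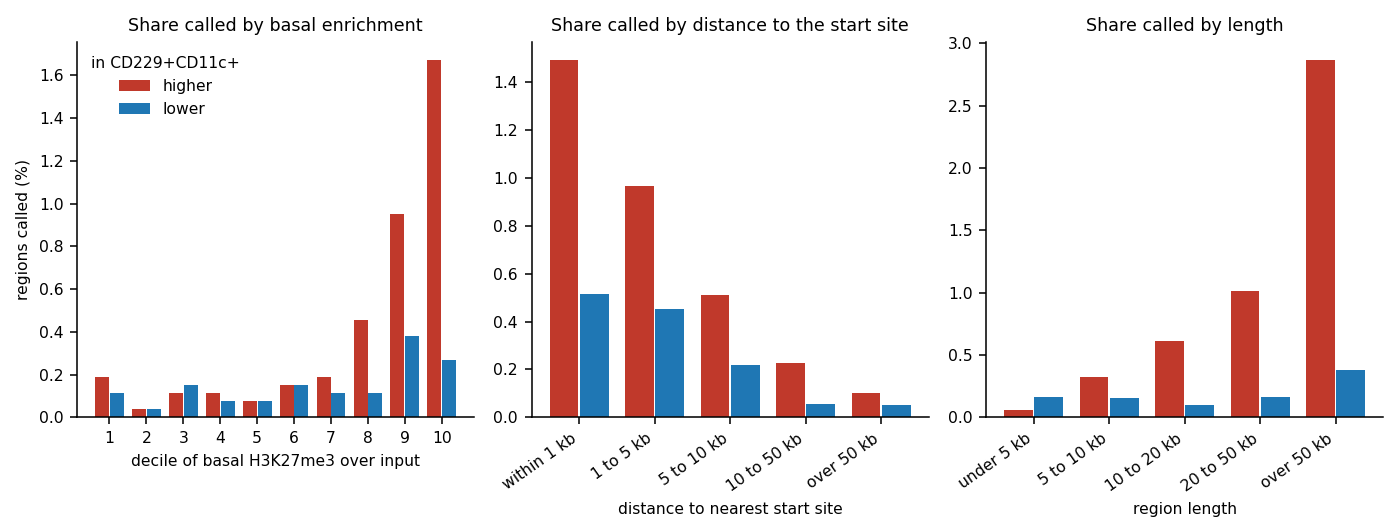
Share of regions (%, y, from 0) called higher (red) or lower (blue) in CD229+CD11c+ by decile of basal H3K27me3 over input, distance to the nearest start site and region length. Gains are most frequent in decile 10, at 1.67%, and in regions over 50 kb, at 2.86%, and both kinds of call are most frequent within 1 kb of a start site, at 1.49% and 0.517%.

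The share of all counted tags that fell in the top decile of basal enrichment was 17%, 16.5% and 16.9% in the double-negative and 18.3%, 18% and 18.3% in the double-positive libraries. The groups did not overlap, and the difference was 1.42 percentage points (two-sided exact permutation p = 0.1, the smallest that 3 against 3 allows). The CD229+CD11c- libraries stood higher still, at 20.0%, 20.0% and 20.2%.

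At the sequence level, 64.4% of gains and 52.5% of falls contained at least 1 whole RefSeq promoter window of 300 bases, against 19.3% of regions not called. Median length was 15060 bp in gains, 6723 bp in falls and 6364 bp in regions not called. The part of length in these shares was not tested. The median number of CpG in these windows was 16 in gains, 13.5 in falls and 8 in regions not called, against 7 over all 32851 windows. A set of 3 motifs was counted on both strands, with no test. TGANTCA, the AP-1 site, has a reverse complement of the same pattern. It was present in 7.81% of all windows, 5 of 103 in gains (4.85%) and 1 of 28 in falls (3.57%). GAGGAAGT, a PU.1 site, was in 3.20% of all windows, 2 of 103 in gains (1.94%) and 1 of 28 in falls (3.57%). TCACGTG, an E-box, was in 3.77% of all windows, 3.88% of those in gains and 0 of the 28 windows in falls. In windows of regions not called the shares were 7.56% for AP-1, 2.17% for PU.1 and 3.01% for the E-box. The AP-1 pattern occurred in the falls at the Ikbke promoter alone, and none of the 8 promoters printed above holds any of the 3 motifs in its window.

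Marker genes of other cells were followed because a sort can admit them, although H3K27me3 on a gene shows silencing and not expression. No marker was lower in any of 7 such lists, and those called higher were Lef1 and Foxq1. Of genes with a region, 11 oligodendrocyte, 22 astrocyte, 38 neuron, 13 neutrophil and dendritic cell and 11 peripheral macrophage markers gave no call, with medians of 0.20, 0.13, 0.15, 0.08 and -0.10. At an unadjusted p under 0.05, 4, 7, 9, 2 and 2 of them were higher and 0, 0, 1, 0 and 1 lower, and DESeq2 called 0, 1, 1, 1 and 0, all higher. Lef1, listed for lymphocytes and for endothelium, rose by 0.39 (adjusted p = 0.00722, edgeR), 1 of 22 and 1 of 25 members, with list medians of 0.06 and 0.19. Foxq1, listed for endothelium, rose by 0.52 (adjusted p = 0.0301, edgeR), and both lost the call without CD229+CD11c+ replicate 1 or 2, Lef1 also without CD229-CD11c- replicate 2. With the block 4 oligodendrocyte, 6 astrocyte, 13 neuron, 4 lymphocyte, 2 neutrophil and dendritic cell, 2 peripheral macrophage and 8 endothelial markers were higher, and 1 neuron and 1 endothelial marker lower. The summed level ran from 1964 to 2266 CPM in double-negative and from 2315 to 2514 CPM in double-positive libraries over neuron markers, and from 456 to 504 and 486 to 514 CPM over peripheral macrophage markers. The shares over all regions were 0.395% higher and 0.152% lower, and 5.9% and 1.79% with the block. The part of other cells in the result was not tested. Of 39 homeostatic microglia genes matched to the annotation 2 overlapped a region, and the 3 with a region within 10 kb gave no call and a median of 0.03, which was -0.02 under total-count scaling. The 12 Polycomb and demethylase genes with a region gave no call, with a median of 0.17, and 4, Sfmbt2, Cbx8, Epop and Bmi1, were higher with the block.

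**Figure D5:**
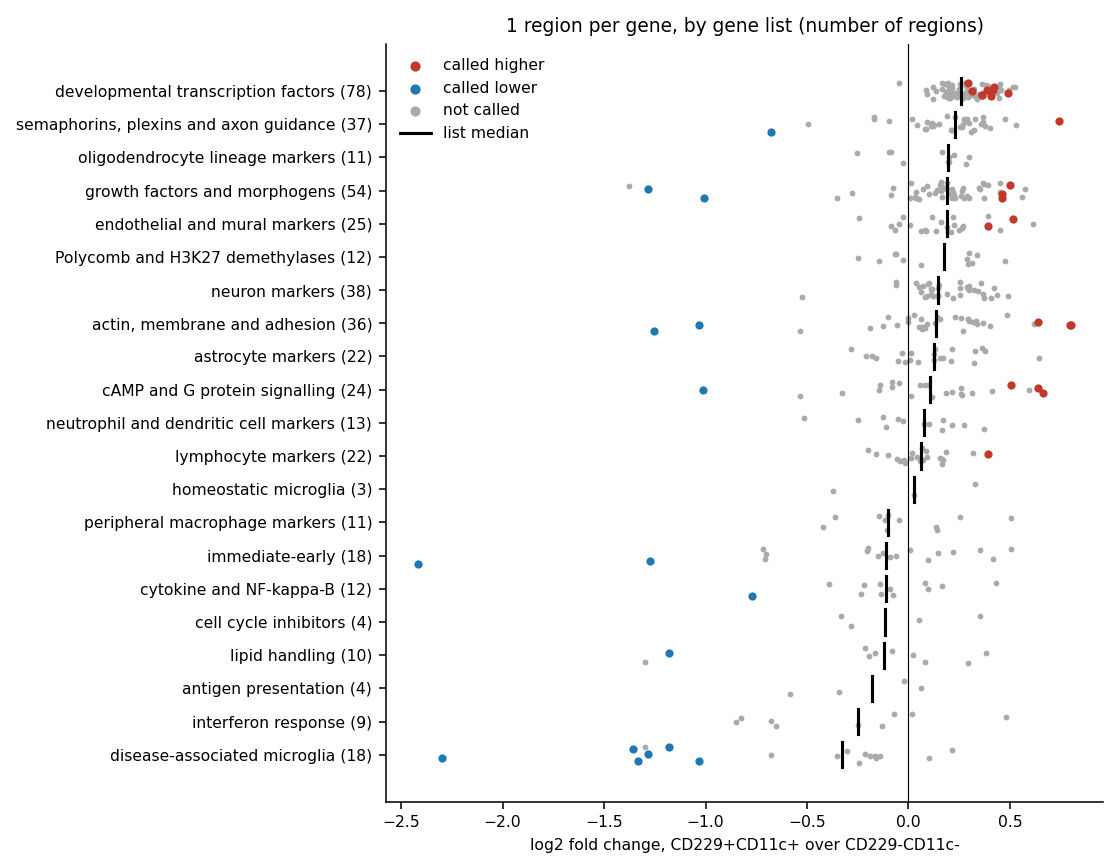
Log2 fold change of CD229+CD11c+ over CD229-CD11c- (x) for 1 region per gene, by gene list (y, number of regions in brackets), with points coloured where called and vertical ticks at the list medians. Disease-associated genes have the lowest median, -0.33, and developmental transcription factors the highest, 0.26.

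In the authors' deposited table for the same contrast, 112 regions were higher and 20 lower at an adjusted p under 0.05. Of the 144 regions called here 103 were under 0.05 there. The authors' deposited table lists an adjusted p of 1 for 25 of the 40 falls called here, while the largest unadjusted p among them is 0.000801 and that of Egr2 is 1.77e-19. All calls listed as 1 there have a mean level of at most 23.9 CPM, and all those under 0.05 at least 25.4 CPM. DESeq2 run on the counts gave 299 higher and 52 lower regions, and gave no adjusted p for 20 of the 144 calls, each of which is listed as 1 in the authors' deposited table.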

How the data were processed

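H3K27me3 was profiled by ChIP-seq in sorted microglia of adult male mice. The deposited count table holds the authors' whole-number tag counts per region on mm10, per the file headers, for regions called on basal libraries against input, so a region marked in cuprizone-exposed cells alone is not counted. The submitters' processing notes name fastp 0.20.0, Bowtie2 2.3.4.1, STAR 2.7.0f, HOMER and DESeq2. A second deposited table gives the authors' normalised signal per library, on which no test was run here, together with their log2 fold changes and p-values from DESeq2, per the submitters' processing notes. Basal enrichment is the authors' deposited log2 ratio of H3K27me3 over input. The input libraries were not used here.

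The counts were fitted with edgeR 4.0.16 (R 4.3.3; TMM, robust quasi-likelihood test, 4 groups, 12 libraries), with Benjamini-Hochberg adjustment over 26326 regions and a threshold of 0.05. The filter on low counts removed 0 regions. DESeq2 1.42.0 was an alternative, and limma 3.58.1 was loaded with edgeR. The test was tested on simulated data. Library totals ran from 7740002 to 11362168 tags, and precision at low regions is limited by these counts. Same-numbered libraries of the 2 subsets correlated in their deviations (0.24, 0.13 and 0.42), so the replicate number, taken from the titles, was used as a block in alternative fits, although unlike-numbered pairs of replicates 1 and 2 reached 0.18 and 0.13. The 0.42 of replicate 3 is not separate evidence, since deviations within a group sum to 0. The labels do not say what a number shares.

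A gene's region in a list is the one nearest to its start site within 10 kb, by the deposited annotation. Named regions were the 12 largest changes each way at or above the median level of 19.1 CPM without overlap, 1 per gene and with no Rik, Gm, Mir, Snor or LOC symbol, up to 4 called members per list and direction, the sort genes, the 5 longest and 5 highest called regions, and the added region at Bhlhe40. Other genes, uncalled members among them, were named after their values were seen. The members and lists were chosen with earlier results of these data known. Promoter windows are from RefSeq on GRCm38.p6, and no genome was used here. Some called regions are not reported here.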

Additional observations from a re-analysis of the deposited data

How the results depend on the processing

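Against 144 regions called, 104 higher and 40 lower, the replicate block gave 2025 (1554 and 471) over the 9 cuprizone libraries and 1537 (1188 and 349) over the 6 libraries compared. The PE150 tag as a covariate gave 1638 (1220 and 418), and the libraries that carry it, taken alone, gave 933 (729 and 204). DESeq2 called 351 (299 and 52). Fewer were called from the 6 libraries without the other groups, 50 (32 and 18), from regions at or above the median level, 23 of them lower, with total-count scaling, 60 of them higher, and with a fitted fold of at least 1.5, 54 (22 higher). Leaving out a library gave 44 to 271 calls, 30 to 226 higher and 14 to 54 lower: the fewest without CD229+CD11c+ replicate 1, and the most in all without CD229-CD11c- replicate 3. The block kept all 144 calls and changed none of them. Of 851 values of named regions under the alternatives, 710 kept their direction and side of the threshold, 141 kept the direction but missed the threshold, and 0 changed direction. The cause of these shifts was not tested. Regions of low level, 21 of the 40 falls, rest on few tags.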

Other observations

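Called regions lay in part beside each other: 25 of the 144 stood within 100 kb of another, in 12 clusters, 10 of which changed in 1 direction. The clusters were picked out after their values were seen. At 97.2 kb, Prdm8, a histone methyltransferase family gene of neurons, and Fgf5 rose together. Neighbours also moved apart: Pde4a fell while the next region, named for S1pr5, a sphingosine-1-phosphate receptor, rose from 68.7, 72.6 and 77.2 CPM in double-negative to 93.8, 92.9 and 96 CPM in double-positive libraries (log2 0.37 ± 0.08, adjusted p = 0.0365, edgeR), all within 89.5 kb. S1pr5 stood at 114, 123 and 132 CPM in CD229+CD11c- cells. Its call was lost in 5 of the 6 fits with a library left out, that of Pde4a in 4, Fgf5 in 3 and Prdm8 in 2. Total-count scaling and the trend offsets also lost the S1pr5 call.

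Of the 6 genes of the sorting panel, Ace, the angiotensin-converting enzyme, was the one that overlapped counted regions. Its 2 regions stood at -0.09 (adjusted p = 0.766, edgeR) and -0.12 (adjusted p = 0.571, edgeR), with 66.1 ± 3.58 against 62.0 ± 1.29 CPM and 164 ± 3.25 against 151 ± 9.63 CPM (SD, n = 3). Cell cycle inhibitors gave no call over 4 regions, with a median of -0.12, and 1 higher and 1 lower at an unadjusted p under 0.05 as well as with the block, while DESeq2 called 1, higher.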
